A study of Mus musculus with 16 samples.

Results

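The 10 genes described here encode large proteins that write, read or remodel chromatin, and all 10 are transcribed into long messenger RNAs. They are the KMT2 family members Kmt2a, Kmt2b, Kmt2c, Kmt2d and Kmt2e, the histone methyltransferase Setd2, the acetyltransferase coactivators Ep300 and Crebbp, and the remodellers Ep400 and Chd8. They were taken by gene symbol from a deposited table in which 49164 genes held values, and all 10 passed the filter on low counts that left 14633 genes tested. They were chosen by a list of names that was written after log2 fold changes measured in these same libraries were known, among them higher levels of long transcripts with Mel322-34, and which values weighed in the choice is not recorded. So every comparison of the 10 genes below is a description of levels. No p-value is given for them, and nothing is read from how many of them passed a threshold.

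KMT2 enzymes methylate lysine 4 of histone H3 at promoters and enhancers, working inside COMPASS complexes with shared partners such as WDR5 and ASH2L. SETD2 follows elongating RNA polymerase II and places the trimethyl mark on lysine 36 of histone H3. EP300 and CREBBP, the closely related p300 and CBP proteins, acetylate histones at enhancers and serve as coactivators for CREB and many other transcription factors, among them MITF in melanocytes. EP400 is the large ATPase of the TIP60 acetyltransferase complex, and CHD8 is an ATP-dependent remodeller that binds beta-catenin. Genes of these families are recurrently mutated in human cancers, melanoma included.

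The cells were B16-F10, a mouse melanoma line that makes pigment and is labelled wild type, and RNA was taken after 24 h in culture with 1 of 4 antibodies. Mel321-31, Mel322-34 and Mel321-35 are the antibodies tested, which the series title presents as decoys directed at extracellular HSP70, and MGO.53 is the isotype control. The stated aim was to learn which genes and pathways change after treatment. In the comparisons n was 4 for Mel321-31, 4 for Mel322-34, 2 for Mel321-35 and 4 for MGO.53, all from the libraries labelled batch 1. A further Mel321-35 library, replicate 1, is the single library labelled batch 2 and is given apart, and Mel321-35 replicate 2 was not analysed here. All groups are a single cell line, and the labels call the samples biological replicates without naming separate cultures, so the p-values speak of sample-to-sample spread that may be technical. A change in the share of cells and a change in RNA per cell cannot be told apart in such bulk RNA.

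The smallest library, MGO.53 replicate 2, held 19446531 counts, and the deepest, Mel321-31 replicate 3, held 37957845. The label of melanoma matched the data, with 9 melanocyte markers, among them Pmel, Tyrp1 and Dct, summing to between 31021 and 32367 CPM (counts per 1000000 in the library, with TMM factors) in every library. Markers of other cell types were low, with Epcam of epithelium, Itgam of leukocytes and Cdh5 of endothelium at 0 in all libraries and Ptprc at no more than 0.0596 CPM. Cd68, also on the leukocyte list, stood between 13.4 and 18.7 CPM, and the 5 leukocyte markers summed to between 13.6 and 19.1 CPM. The 6 epithelial markers summed to 6.15 to 10.4 CPM in Mel321-31, 8.26 to 21.5 in Mel322-34, 10.7 to 19.5 in Mel321-35 and 15.2 to 26.3 in MGO.53 libraries of batch 1, and to 1.11 CPM in the batch 2 library. The 6 fibroblast markers summed to between 7.68 and 11.99 CPM. The part of these small differences in the results below was not tested.

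The promoters of 8 of the 10 genes were found in the RefSeq table for GRCm38.p6, as 300 bases that run from 250 before the annotated start to 50 after it. Those of 4 genes are shown because they belong to the genes on which the levels below turn most. Ep300 and Setd2 were called higher with Mel322-34 than with MGO.53, where called means an adjusted p under 0.05 in edgeR's quasi-likelihood test over all genes, Crebbp is the paralogue of Ep300 that stayed near the control level there, and Kmt2c differed most between 2 of the antibodies. Capitals mark the GC box GGGCGG on either strand, and each sequence is written 5′ to 3′ along the gene.
Ep300: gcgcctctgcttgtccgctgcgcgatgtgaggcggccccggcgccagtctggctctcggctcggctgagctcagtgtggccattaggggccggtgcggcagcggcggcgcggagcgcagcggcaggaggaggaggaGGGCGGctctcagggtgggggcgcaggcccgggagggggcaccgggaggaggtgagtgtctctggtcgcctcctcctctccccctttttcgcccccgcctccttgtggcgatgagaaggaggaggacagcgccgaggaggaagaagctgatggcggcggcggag
Setd2: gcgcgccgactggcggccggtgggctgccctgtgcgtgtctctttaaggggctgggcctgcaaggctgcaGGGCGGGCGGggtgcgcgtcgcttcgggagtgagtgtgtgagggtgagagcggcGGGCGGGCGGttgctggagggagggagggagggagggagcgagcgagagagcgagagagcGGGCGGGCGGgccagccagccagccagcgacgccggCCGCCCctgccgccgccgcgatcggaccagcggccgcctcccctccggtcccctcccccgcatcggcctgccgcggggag
Crebbp: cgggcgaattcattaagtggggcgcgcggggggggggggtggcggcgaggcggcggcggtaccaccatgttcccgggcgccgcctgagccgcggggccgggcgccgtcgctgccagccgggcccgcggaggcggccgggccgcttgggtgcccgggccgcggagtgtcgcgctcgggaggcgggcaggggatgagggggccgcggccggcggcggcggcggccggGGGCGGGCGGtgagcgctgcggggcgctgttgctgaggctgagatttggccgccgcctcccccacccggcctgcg
Kmt2c: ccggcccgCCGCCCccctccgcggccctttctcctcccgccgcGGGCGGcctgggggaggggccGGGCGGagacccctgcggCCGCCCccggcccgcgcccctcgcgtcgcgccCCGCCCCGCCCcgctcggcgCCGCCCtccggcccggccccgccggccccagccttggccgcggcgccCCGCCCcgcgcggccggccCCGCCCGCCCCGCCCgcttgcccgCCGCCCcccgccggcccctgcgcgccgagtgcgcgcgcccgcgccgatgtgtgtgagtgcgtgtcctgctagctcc
They lie at chr15:81585964-81586263 (+) for Ep300, chr9:110532347-110532646 (+) for Setd2, chr16:4213355-4213654 (-) for Crebbp and chr5:25498734-25499033 (-) for Kmt2c. All 4 are CpG-rich, with 30 CpG in Ep300, 38 in Setd2, 49 in Crebbp and 56 in Kmt2c, where the median over all 32851 promoters of the table was 7. The GC box was present in 8 of the 8 promoters and in 35.7% of all promoters in the table. Kmt2c held 12 of them in this window, Setd2 held 7, Crebbp held 2 and Ep300 held 1, and neighbouring copies overlapped in places. Other motifs were searched on both strands. The ETS motif CCGGAAG, present in 8.86% of all promoters, and the CCAAT box, present in 37.4%, were found among the 8 genes in Chd8 alone. The letters of the E-box CACGTG (7.15% of all promoters), the CREB element TGACGTCA (1.79%), the AP-1 element TGANTCA (7.81%), the NRF1 motif GCGCATGCG (1.75%) and the heat-shock element core GAANNTTC (7.86%) were not in these windows.

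The 10 messenger RNAs are among the longest in these cells. Their longest annotated transcripts span 7.32 kb for Kmt2e to 19.8 kb for Kmt2d, which places them between the 92.8th and the 99.7th percentile of the genes tested, whose median is 3117 bases. Their base composition is spread more widely, with a GC content of 44.3% in Setd2 and 59.1% in Kmt2b. Scaled by transcript length, Chd8 was the most abundant at 13.6 CPM per kb over the batch 1 libraries, followed by Kmt2e at 11.6 and Ep300 at 10.8 CPM per kb. Kmt2c was the least abundant at 2.14 CPM per kb, next to Crebbp at 2.98 CPM per kb. Each gene was counted well, with at least 577 reads in every library, a number set by Kmt2c. The range over the 14 batch 1 libraries was narrow, and the highest level was 1.18 times the lowest in Chd8 and 1.64 times in Kmt2c.

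**Figure D1:**
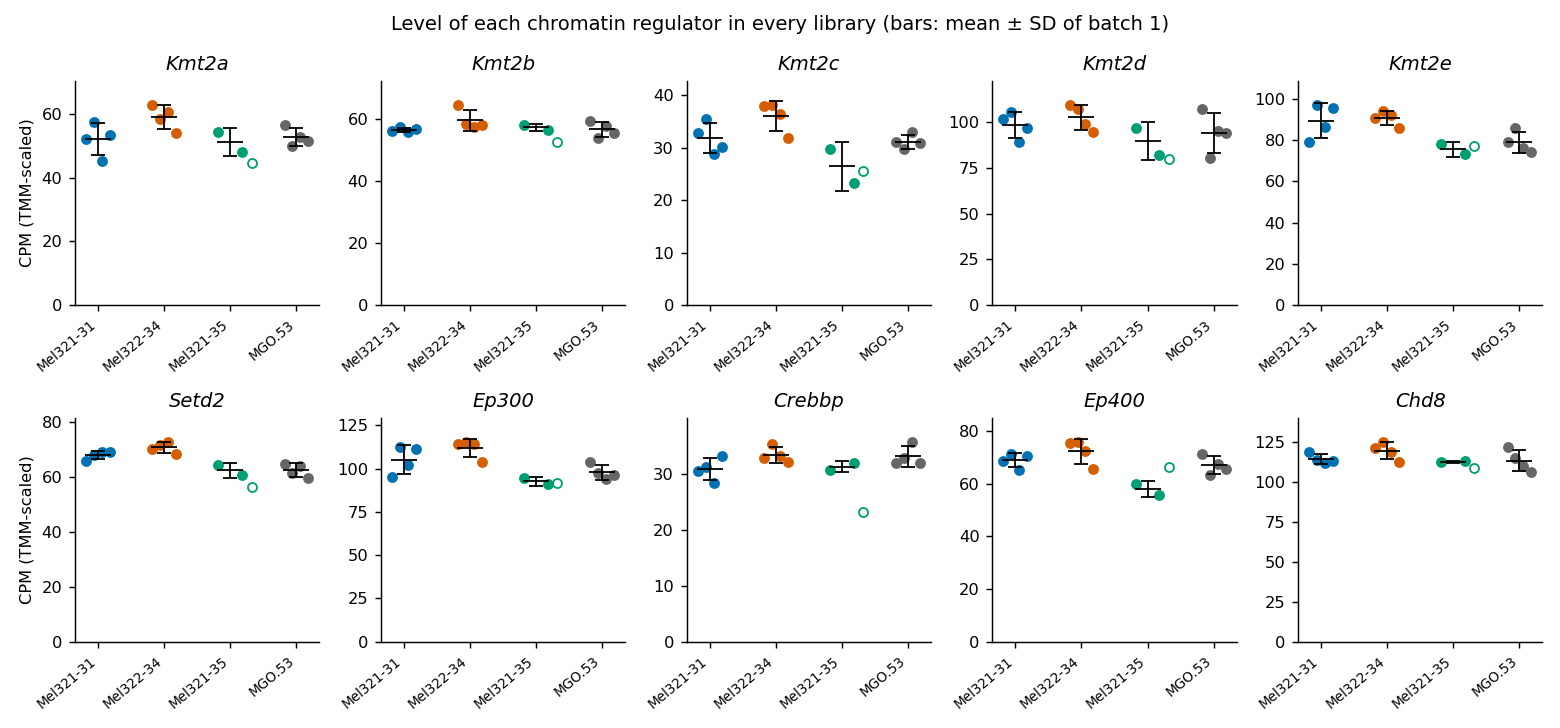
Levels of the 10 genes in CPM (linear axis from 0) in each library, by antibody. Filled points are batch 1 libraries, the open point is the batch 2 library of Mel321-35, and bars give the mean ± SD of batch 1. Mel322-34 has the highest mean for all 10 genes, and libraries of most groups overlap.

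The plot of levels by library shows the same order of antibodies for most of the genes. The mean was highest with Mel322-34 for 10 of 10 genes and lowest with Mel321-35 for 8 of 10, the exceptions being Kmt2b and Crebbp, where Mel321-31 was lowest. Mel321-31 came second for 7 genes. Most steps in this order were no larger than the spread, since libraries of neighbouring groups overlapped in 27 of 30 neighbouring pairs. The 3 pairs that did not overlap were Mel321-35 against MGO.53 for Kmt2c and Ep400, where Mel321-35 was below, and Mel321-31 against MGO.53 for Setd2, where Mel321-31 was above. For Kmt2c the nearest libraries were almost level, at 29.75 CPM in Mel321-35 and 29.80 CPM in MGO.53.

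Among the KMT2 methyltransferases, Kmt2c moved most between antibodies. KMT2C, also known as MLL3, deposits the monomethyl mark of enhancers together with its paralogue KMT2D. Kmt2c stood at 37.9, 38.1, 36.4 and 31.9 CPM in the Mel322-34 libraries, 32.8, 35.4, 28.9 and 30.2 in Mel321-31, 29.8 and 23.2 in Mel321-35, and 31.1, 29.8, 33.0 and 30.8 CPM in MGO.53. Of the Mel322-34 libraries 3 lay above all MGO.53 libraries. Both Mel321-35 libraries lay below all of them, replicate 3 only just, at 29.75 against 29.80 CPM in MGO.53 replicate 2. The log2 fold change against MGO.53 was 0.21 ± 0.074 (SE) with Mel322-34, 0.027 ± 0.074 with Mel321-31 and -0.23 ± 0.093 with Mel321-35, and none of the 3 was called. With each library left out in turn, the value with Mel321-35 ran from -0.43 to -0.065. The batch 2 library of Mel321-35, at 25.6 CPM, lay between the other libraries of that antibody.

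Kmt2d, which encodes the paralogue MLL4, averaged 103 ± 6.81 CPM in Mel322-34 (SD, n = 4), 98.4 ± 7.11 in Mel321-31 (n = 4), 89.6 ± 10.4 in Mel321-35 (n = 2) and 94.3 ± 10.9 CPM in MGO.53 (n = 4). All groups overlapped with MGO.53, whose own libraries ran from 80.6 to 107 CPM. Kmt2a encodes MLL1, which maintains HOX gene expression. Its level was 59.1 ± 3.72 CPM in Mel322-34, 52.1 ± 5.06 in Mel321-31, 51.2 ± 4.42 in Mel321-35 and 52.7 ± 2.76 CPM in MGO.53, and 3 of the 4 Mel322-34 libraries lay above all MGO.53 libraries. The log2 fold change of Kmt2a with Mel322-34 over MGO.53 was 0.16 ± 0.062. Kmt2b, the nearest relative of Kmt2a, was the steadiest of the family, with means of 59.5 ± 3.31 CPM in Mel322-34, 56.5 ± 0.646 in Mel321-31, 57.2 ± 1.122 in Mel321-35 and 56.5 ± 2.51 CPM in MGO.53.

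Kmt2e is the outlying member of the family, since its product MLL5 binds methylated lysine 4 of histone H3 and has little or no methyltransferase activity of its own. Kmt2e stood at 90.5, 93.9, 92.0 and 85.9 CPM in Mel322-34, 79.1, 97.0, 86.2 and 95.5 in Mel321-31, 78.2 and 73.0 in Mel321-35, and 79.3, 85.6, 76.1 and 74.4 CPM in MGO.53. The 4 Mel322-34 libraries lay above all MGO.53 libraries, and 3 of the 4 Mel321-31 libraries did so too. The log2 fold changes were 0.20 ± 0.055 with Mel322-34, which was called, 0.19 ± 0.054 with Mel321-31 and -0.057 ± 0.068 with Mel321-35. Kmt2e shares exonic sequence on the opposite strand with Srpk2, a kinase gene that held 34942 counts over batch 1, against 37440 for Kmt2e. Srpk2 had log2 fold changes of 0.11 ± 0.044 with Mel322-34, 0.036 ± 0.044 with Mel321-31 and 0.11 ± 0.054 with Mel321-35. Use of strand by the counting step was not given in the sources used here, and the division of reads between the pair is uncertain.

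Setd2, the only gene of the 10 that acts on lysine 36, had narrow groups. It stood at 70.4, 71.7, 72.9 and 68.3 CPM in Mel322-34, 65.9, 68.0, 69.1 and 69.2 in Mel321-31, 64.3 and 60.6 in Mel321-35, and 64.9, 61.7, 64.2 and 59.7 CPM in MGO.53. Neither Mel322-34 nor Mel321-31 overlapped with MGO.53, while Mel321-35 lay within the MGO.53 range. The log2 fold changes were 0.18 ± 0.043 with Mel322-34, which was called, 0.12 ± 0.043 with Mel321-31 and -0.0033 ± 0.053 with Mel321-35.

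Of the acetyltransferase paralogues, Ep300 was called higher with Mel322-34 and Crebbp was not, and they were not tested against each other. Ep300 stood at 114, 115, 114 and 104 CPM in Mel322-34, 94.9, 112, 102 and 111 in Mel321-31, 94.5 and 90.9 in Mel321-35, and 104, 97.2, 93.7 and 96.2 CPM in MGO.53. In Mel322-34 3 libraries lay above all MGO.53 libraries, and the remaining one was level with the highest of them. The log2 fold changes of Ep300 were 0.19 ± 0.049 with Mel322-34, which was called, 0.11 ± 0.049 with Mel321-31 and -0.077 ± 0.061 with Mel321-35.

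Crebbp was about as high with Mel322-34 as with the control. Its libraries held 32.8, 35.3, 33.1 and 32 CPM in Mel322-34, 30.4, 31.1, 28.4 and 33.2 in Mel321-31, 30.6 and 31.9 in Mel321-35, and 31.8, 32.8, 35.7 and 31.9 CPM in MGO.53. All groups overlapped, and 3 of the 4 Mel321-31 libraries lay below all MGO.53 libraries. The log2 fold changes of Crebbp were 0.012 ± 0.059 with Mel322-34, -0.10 ± 0.059 with Mel321-31 and -0.082 ± 0.073 with Mel321-35. The batch 2 library of Mel321-35 held 23.1 CPM of Crebbp, below all 14 batch 1 libraries.

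Of the remodellers, Ep400 resembled Kmt2c. Ep400 stood at 75.4, 75.9, 72.5 and 65.4 CPM in Mel322-34, 68.5, 71.3, 65.2 and 70.3 in Mel321-31, 60.1 and 55.8 in Mel321-35, and 71.3, 63.3, 67.5 and 65.6 CPM in MGO.53. Both Mel321-35 libraries lay below all libraries of the other groups, and 3 Mel322-34 libraries lay above all MGO.53 libraries. The log2 fold changes were 0.11 ± 0.050 with Mel322-34, 0.038 ± 0.050 with Mel321-31 and -0.21 ± 0.063 with Mel321-35. The batch 2 library of Mel321-35, at 66.4 CPM, was above both batch 1 libraries of that antibody and inside the MGO.53 range. Chd8, the most abundant of the 10 per kb and the one with the narrowest range, had means of 119.7 ± 5.26 CPM in Mel322-34, 115 ± 3.10 in Mel321-31, 113 ± 0.382 in Mel321-35 and 113 ± 6.50 CPM in MGO.53.

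**Figure D2:**
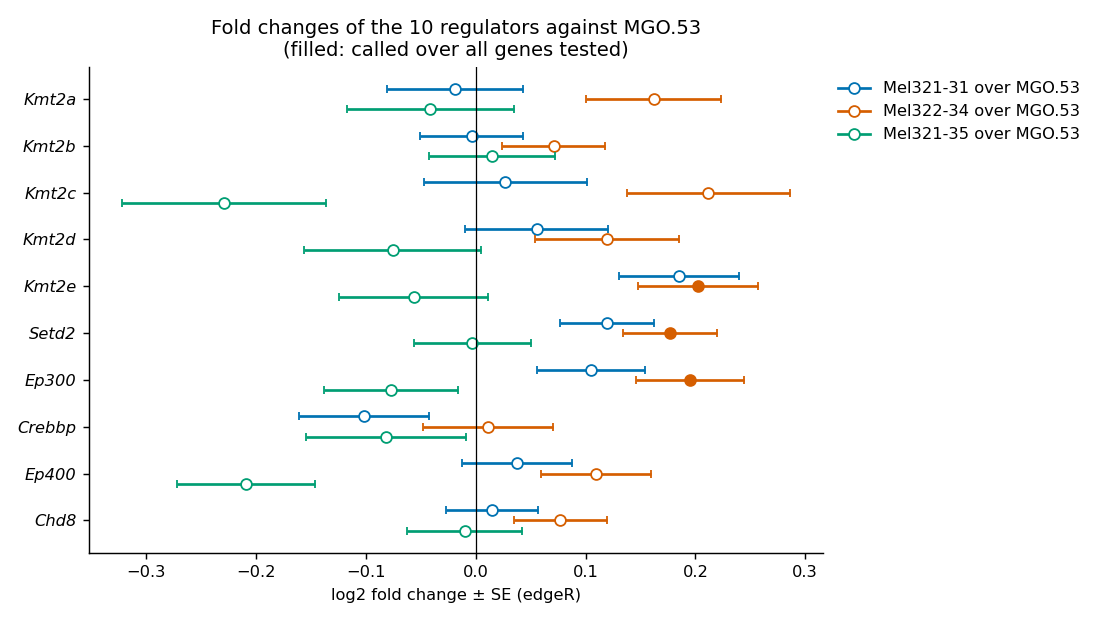
Log2 fold change ± SE against MGO.53 (x axis) for each of the 10 genes and each antibody, from the edgeR fit of 14 batch 1 libraries. Filled points were called over all genes tested, which holds for Kmt2e, Setd2 and Ep300 with Mel322-34.

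With Mel322-34 against MGO.53, the fold change was positive for 10 of 10 genes, with a median log2 fold change of 0.14, where the median over all genes tested was -0.0011. In edgeR's quasi-likelihood test at an adjusted p under 0.05, 3 of the 10 were called higher and 0 lower. The same rule called 4.03% of all genes higher, 2.84% lower and 6.87% in either direction. Every Mel322-34 library lay above every MGO.53 library for 2 of the 10, which held for 7.03% of all genes. The 3 calls moved with single libraries. None of the 10 was called without MGO.53 replicate 4 or without Mel322-34 replicate 3. Over all genes those fits called 504 and 327, in place of 1005. Setd2 alone was called without MGO.53 replicate 3, with 763 genes in all. Kmt2e and Setd2 were called without MGO.53 replicate 2, with 397 genes in all. Kmt2c joined the 3 without Mel322-34 replicate 4, with 703 genes in all.

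With Mel321-31 against MGO.53, 7 of 10 fold changes were positive, with a median log2 fold change of 0.032. edgeR called 0 of the 10, where the rule called 3.53% of all genes. At an unadjusted p under 0.05 there were 3 of the 10, Kmt2e, Setd2 and Ep300, and 17.8% of all genes, while DESeq2 called 1, Kmt2e, and limma-voom 0. Without Mel321-31 replicate 1, edgeR called 2, Kmt2e and Ep300, and it called 1, Kmt2e, without Mel322-34 replicate 2, Mel321-35 replicate 3, Mel321-35 replicate 4 or MGO.53 replicate 2. Over all genes 1238 were called without Mel321-31 replicate 1, 674 without Mel322-34 replicate 2 and 163 without MGO.53 replicate 2, in place of 517. The 4 Mel321-31 libraries lay above all MGO.53 libraries for 1 of the 10, Setd2, and for 4.61% of all genes.

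With Mel321-35 against MGO.53, 1 of 10 fold changes was positive, that of Kmt2b, and the median log2 fold change was -0.066. edgeR called 0 of the 10 and 0.0410% of all genes. At an unadjusted p under 0.05 there were 2, Kmt2c and Ep400, and 10.5% of all genes, and DESeq2 and limma-voom each called 0. Both Mel321-35 libraries lay below all MGO.53 libraries for those 2 of the 10, and for 9.83% of all genes. For Kmt2c this held only just in Mel321-35 replicate 3. The batch 2 library of Mel321-35 stood below the batch 1 mean for all 10 genes, at a ratio of 0.717 for Crebbp and 0.981 for Ep400. With a single library in batch 2, its batch and its antibody cannot be told apart.

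The 3 comparisons above share the MGO.53 libraries, so their values are given side by side and no relation between them is drawn. Set directly against each other, Mel322-34 exceeded Mel321-35 for 10 of 10 genes, with a median log2 fold change of 0.20. edgeR called 3 of the 10 higher, where it called 0.191% of all genes higher and 0.260% in either direction. These were Kmt2c at a log2 fold change of 0.44 ± 0.092, Ep400 at 0.32 ± 0.062 and Ep300 at 0.27 ± 0.061. Every Mel322-34 library lay above both Mel321-35 libraries for 6 of the 10, namely Kmt2c, Kmt2e, Setd2, Ep300, Crebbp and Ep400, and for 9.73% of all genes. The number called was 0 of 10 without Mel321-35 replicate 4, without Mel322-34 replicate 1 and without Mel322-34 replicate 3, 1 (Ep400) without Mel322-34 replicate 2, and 2 (Kmt2c and Ep400) without Mel321-35 replicate 3, Mel321-31 replicate 3, MGO.53 replicate 2 or MGO.53 replicate 4. It was 4, with Kmt2e added, without Mel321-31 replicate 1, and 3 without each of the other libraries. Over all genes 15 were called without Mel322-34 replicate 1 and 12 without Mel322-34 replicate 3, in place of 38. Without Mel322-34 replicate 2 there were 42, and without Mel321-31 replicate 1 there were 127. Leaving out replicate 3 or 4 of Mel321-35 leaves 1 library in that group.

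Mel322-34 also exceeded Mel321-31 in all 10 fold changes, with a median of 0.073 on the log2 scale, although edgeR called 0 of the 10 and 0.0205% of all genes. At an unadjusted p under 0.05 there were 2 of the 10 and 6.96% of all genes, and DESeq2 and limma-voom each called 0. Every Mel322-34 library lay above every Mel321-31 library for 1 of the 10, Kmt2b, and for 1.91% of all genes. Mel321-35 lay below Mel321-31 for 8 of the 10, with a median log2 fold change of -0.127, and edgeR called 0 of the 10 and 0.103% of all genes. At an unadjusted p under 0.05 there were 5 of the 10 and 8.06% of all genes, and DESeq2 and limma-voom each called 0. Both Mel321-35 libraries lay below all Mel321-31 libraries for 4 of the 10, Kmt2e, Setd2, Ep300 and Ep400, and for 8.22% of all genes.

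With Mel322-34 the median of the 10 genes was close to that of other long transcripts, while with Mel321-31 and Mel321-35 it was below it. Over 10160 other genes with an average log2 CPM above 2, Spearman's rank correlation of the log2 fold change with transcript length was 0.51 for Mel322-34 over MGO.53, 0.38 for Mel321-31 and 0.12 for Mel321-35. The same correlation with GC content was -0.45, -0.49 and -0.41 in that order. These are across genes of the same libraries, which are not independent replicates. Other genes of 8 to 12 kb (n = 497) had a median of 0.12 on the log2 scale with Mel322-34, and 24.3% of them were called higher. For those of 12 kb or more (n = 116) the median was 0.145 and 26.7% were called higher. Genes under 1 kb (n = 390) had a median of -0.11, and 17.7% of them were called lower. Set beside these classes, the median over the 10 regulators, 0.141, lay between those of the 2 longest. With Mel321-31 the median was 0.032 over the 10 regulators, against 0.082 over the class of 8 to 12 kb and 0.085 over that of 12 kb or more. With Mel321-35 it was -0.066 over the 10, against 0.014 and -0.014 over those classes. Within the 10 themselves the fold change with Mel322-34 had a rank correlation of -0.079 with length and -0.65 with GC content.

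**Figure D3:**
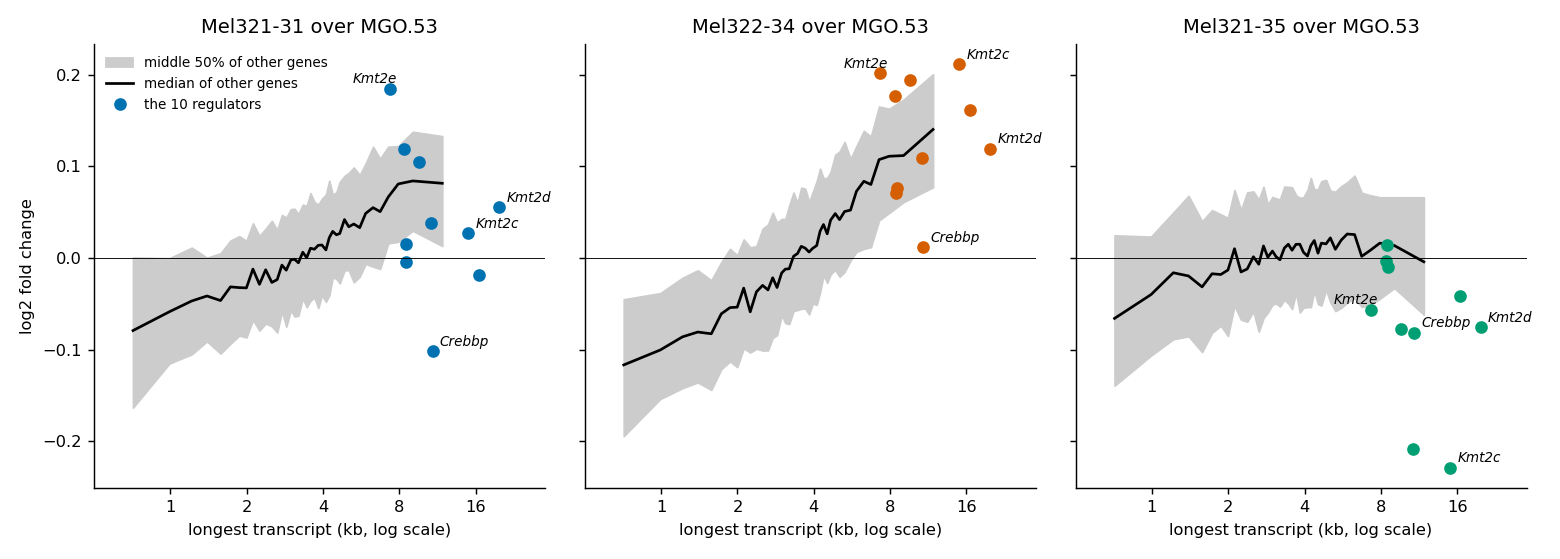
Log2 fold change against MGO.53 (y axis) by longest transcript in kb (log scale), one panel per antibody. The line and band give the running median and middle 50% of 10160 other genes, and points are the 10 regulators, which lie around the line for Mel322-34 (Crebbp at 0.012, Kmt2c at 0.21) and mostly below it for the other antibodies.

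After the trend on length had been removed from each library, the median log2 fold change of the 10 genes was -0.013 with Mel322-34, -0.050 with Mel321-31 and -0.062 with Mel321-35. With Mel322-34, 4 of the 10 were then positive and 0 were called, and 418 of all genes (2.86%) were called in place of 1005. The values that stayed highest were Kmt2e at 0.11, Ep300 at 0.073 and Setd2 at 0.069, and Crebbp was lowest at -0.12. Removing a trend on GC content in place of length left a median of 0.15 and 1 gene called, Ep300. In Mel321-35 the low values of Kmt2c and Ep400 were nearly as large with the length trend removed, at -0.22 and -0.21. Between Mel322-34 and Mel321-35 the median was 0.054 with the length trend removed, with 0 of the 10 and 0.164% of all genes called.

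The tilt on length was measured in each library as the slope of log2 CPM, relative to the mean of all batch 1 libraries, on log2 transcript length of the other genes. It averaged 0.0333 ± 0.0206 log2 units per doubling of length in Mel322-34 (SD, n = 4), 0.00969 ± 0.0395 in Mel321-31 (n = 4), -0.0189 ± 0.0153 in Mel321-35 (n = 2) and -0.0335 ± 0.0126 in MGO.53 (n = 4). The 4 Mel322-34 libraries lay above all 4 MGO.53 libraries. Higher levels of long transcripts with Mel322-34 were known from these libraries when the 10 genes were listed, so the slopes are a description and carry no test. Mel321-31 replicate 1 stood apart from its group at -0.0484, while its other libraries lay between 0.0182 and 0.0348. The share of mitochondrial counts ran from 1.96% to 2.17% in Mel322-34 and from 1.95% to 2.47% in MGO.53 libraries. The part of depth, of RNA quality and of base composition in these levels was not tested.

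**Figure D4:**
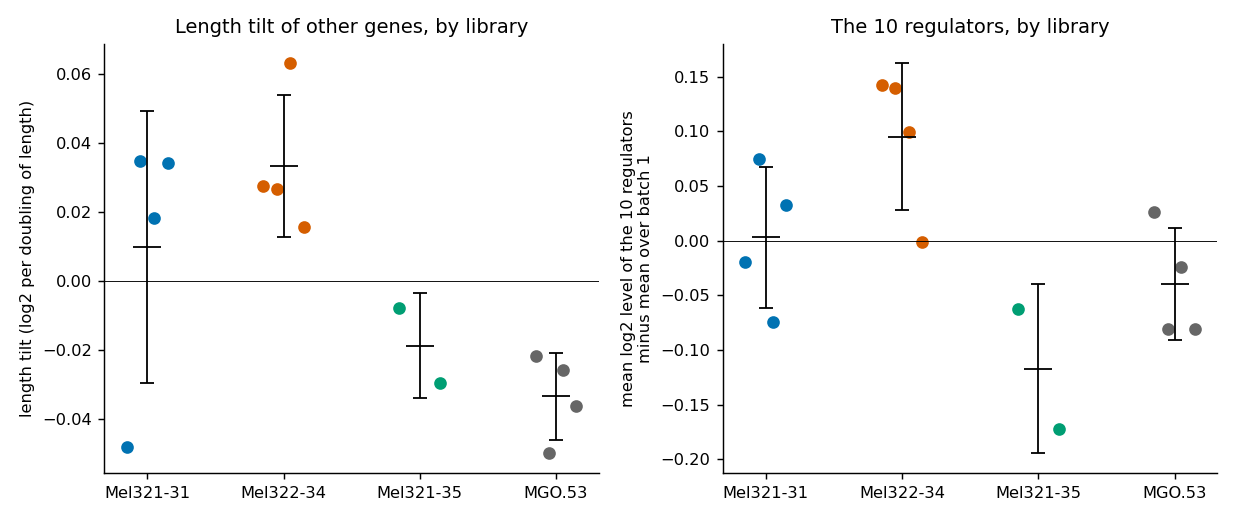
Left, the slope of log2 CPM on log2 transcript length over 10160 other genes in each batch 1 library. Right, the mean log2 level of the 10 regulators relative to the mean of batch 1, with bars for mean ± SD of each antibody group; Mel322-34 has the highest mean in both panels, and Mel321-35 has the lowest in the right panel (libraries at -0.063 and -0.17).

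Deviations within the antibody groups were mostly in the same direction in the 10 genes. Over the 45 pairs of genes, deviations from group means over the 14 batch 1 libraries had a median Pearson r of 0.40, and 44 pairs were positive. Over all pairs of 8004 other genes averaging at least 4 in log2 CPM the median r was 0.0033 and 50.3% were positive. Over all pairs of the 527 of these with a transcript of 8 kb or more the median r was 0.27 and 75.5% were positive. The closest pair was Kmt2d with Ep400 at 0.87, followed by Kmt2a with Ep400 at 0.85, and the loosest was Kmt2b with Kmt2e at -0.0067. All pairs share their libraries, so depth and tilt are common to them. Of the 8004 other genes, those whose levels over the 14 libraries followed the mean of the 10 most closely were Bahcc1 (r = 0.95), Nav1, Sptbn1, Mycbp2 and Nf1 (r = 0.94 for Sptbn1, Mycbp2 and Nf1). Their transcripts are long as well, between 9.11 kb in Sptbn1 and 15.2 kb in Mycbp2.

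The partners of the 10 proteins were read from gene lists, and like the 10 names these lists were drawn up with earlier results known. Each gene was tested in the fit over all genes, and no list was tested as a set. In all genes 4.03% were called higher and 2.84% lower with Mel322-34. Of 19 COMPASS and KMT2 complex partners 0 rose and 1 fell with Mel322-34, and the median log2 fold change was 0.040. The gene that fell was L3mbtl2, a polycomb-type reader, at 226 ± 1.98 CPM in Mel322-34 and 250.1 ± 4.13 in MGO.53 (SD, n = 4 each; log2 fold change -0.14 ± 0.031, adjusted p = 0.00678). Of 24 other histone methyltransferases 1 rose, Ash1l, which targets lysine 36 (0.22 ± 0.054, adjusted p = 0.0159), and 1 fell, the arginine methyltransferase Prmt1 (-0.11 ± 0.033, adjusted p = 0.0484). Of 15 KMT2A and menin targets 1 rose, Mef2c, a transcription factor (0.18 ± 0.054, adjusted p = 0.0444), and 0 fell. Ash1l, Prmt1 and Mef2c lost the call with the length trend removed, and L3mbtl2 kept it. With the GC trend removed in place of length, Ash1l, Prmt1, Mef2c and L3mbtl2 all lost the call, L3mbtl2 at -0.10. Prmt1 also lost it without any single library of Mel322-34 or MGO.53.

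Among 19 histone demethylases 3 rose with Mel322-34 and 0 fell, with a median log2 fold change of 0.081. With the length trend removed 0 were called and the median was 0.018. Jmjd1c, an H3K9 demethylase family member, stood at 104 ± 5.54 CPM in Mel322-34 and 88.2 ± 5.02 in MGO.53 (log2 fold change 0.25 ± 0.049, adjusted p = 0.00388), and Kdm4c and Kdm2b rose by 0.20 ± 0.057 (adjusted p = 0.0338) and 0.22 ± 0.067 (adjusted p = 0.0463). Neither Kdm4c nor Kdm2b was called without MGO.53 replicate 1, 2 or 4, and limma-voom did not call Kdm2b. Among 24 other acetyltransferases and coactivators 6 rose and 0 fell, although the list's median was 0.0078. With the length trend removed 1 rose and 1 fell, and the median was -0.030. Kat6b, a MYST acetyltransferase, stood at 17.5 ± 1.79 CPM in Mel322-34 and 13.7 ± 1.15 in MGO.53 (0.34 ± 0.084, adjusted p = 0.0137), and Med13, a Mediator kinase module subunit, at 96.0 ± 4.88 CPM in Mel322-34 and 79.1 ± 4.10 in MGO.53 (0.28 ± 0.052, adjusted p = 0.00195). Of 21 deacetylases and corepressors 1 rose, the corepressor Ncor1 (0.17 ± 0.041, adjusted p = 0.0127), and the list's median was -0.069. Ncor1 lost the call with the length trend removed, at 0.054.

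Among 25 CHD and other remodellers 5 rose with Mel322-34 and 0 fell, with a median log2 fold change of 0.089. With the length trend removed 0 rose and 2 fell, and the median was -0.020. Atrx, a SNF2-type remodeller of heterochromatin, stood at 385 ± 7.75 CPM in Mel322-34 and 336 ± 9.60 in MGO.53 (0.20 ± 0.034, adjusted p = 0.00124), and Bptf, the large subunit of NURF, at 154 ± 7.42 CPM in Mel322-34 and 135 ± 3.93 in MGO.53 (0.19 ± 0.043, adjusted p = 0.00774). Of the 17 genes of the TIP60-EP400 complex 0 rose and 2 fell, Vps72 (-0.17 ± 0.043, adjusted p = 0.0175) and Ruvbl2 (-0.16 ± 0.045, adjusted p = 0.0287), both with shorter transcripts than Ep400. Neither was called with the length trend removed. Of 15 readers of lysine 36 methylation and SETD2 partners, edgeR called 0, with 4 at an unadjusted p under 0.05, as 22.2% of all genes were, and DESeq2 called 2 and limma-voom 1.

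Target genes of the coactivators and of beta-catenin are set beside the shares of all genes called with Mel322-34, 4.03% higher and 2.84% lower. Of 16 CREB and CBP-p300 targets 1 rose with Mel322-34, the survival gene Bcl2 (0.21 ± 0.048, adjusted p = 0.0104), and 2 fell, the early-response nuclear receptors Nr4a1 (-0.21 ± 0.048, adjusted p = 0.0102) and Nr4a3 (-0.14 ± 0.036, adjusted p = 0.022). Bcl2 lost the call with the length trend removed, while Nr4a1 and Nr4a3 kept it. With the GC trend removed in place of length, Nr4a1 lost the call, at -0.15. Of 8 beta-catenin targets 1 fell, the growth regulator Myc, at 88.9 ± 2.19 CPM in Mel322-34 and 107 ± 7.0 in MGO.53 (-0.26 ± 0.043, adjusted p = 0.000729). Myc fell by nearly as much after the length trend was removed, by 0.22 on the log2 scale.

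Further lists held long transcripts of other functions, small chromatin proteins and ribosomal proteins. Of 36 long transcripts of other functions 15 rose with Mel322-34 and 0 fell, with a median log2 fold change of 0.17 that became 0.0070 with the length trend removed. Utrn, encoding the cytoskeletal linker utrophin, stood at 184 ± 8.81 CPM in Mel322-34 and 143 ± 7.96 in MGO.53 (0.36 ± 0.047, adjusted p = 4.81e-05). Usp9x, encoding a deubiquitinase, rose by 0.35 ± 0.049 on the log2 scale (adjusted p = 0.000109). Of 21 short chromatin proteins 1 rose, the heterochromatin protein gene Cbx5 (0.15 ± 0.038, adjusted p = 0.0202), whose longest transcript spans 8.80 kb, and 2 fell, the architectural protein gene Hmga1 (-0.28 ± 0.040, adjusted p = 0.000176) and Banf1 (-0.16 ± 0.050, adjusted p = 0.0445). Cbx5 and Banf1 lost the call with the length trend removed, and Hmga1 kept it. Of 41 cytosolic ribosomal protein genes, with a median transcript of 1.13 kb, 0 rose and 24 fell, with a median log2 fold change of -0.14. With the length trend removed 8 of these fell and the median was -0.057. Over the 14 lists together 34 of 299 genes rose with Mel322-34 and 33 fell. Without Mel322-34 replicate 3 these numbers were 15 and 14, without MGO.53 replicate 2 they were 16 and 19, and without MGO.53 replicate 4 they were 17 and 17. With the length trend removed 5 rose and 19 fell. Of 29 called genes that were named from the lists by rule, 8 were called under every alternative run, namely Utrn, Usp9x, Vps13a, Med13, Hmga1, Myc, Rpl37 and Rpl19.

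**Figure D5:**
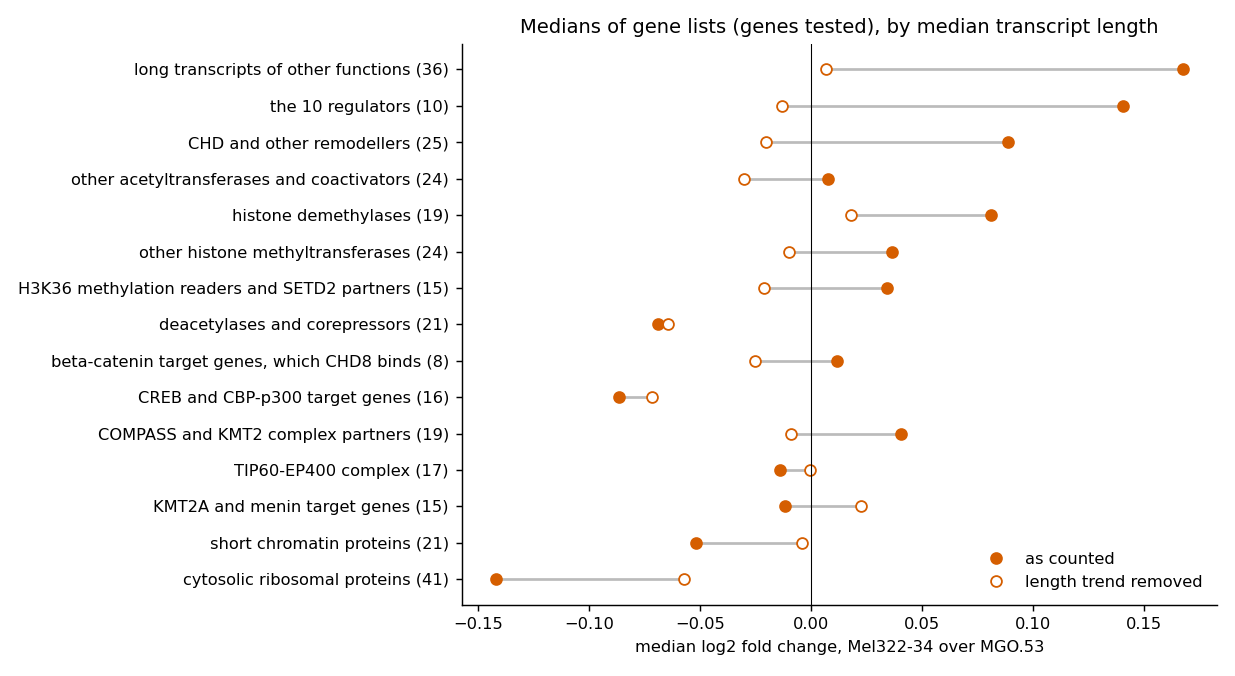
Median log2 fold change of Mel322-34 over MGO.53 (x axis) for the 10 regulators and 14 gene lists, ordered from longest (top) to shortest median transcript, with the number of genes tested in brackets. Filled points are values as counted and open points those with the length trend removed; the 10 regulators moved from 0.14 to -0.013 and long transcripts of other functions from 0.17 to 0.0070.

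With Mel321-31, 11 of the 299 genes of these lists rose and 13 fell, where 1.41% of all genes were called higher and 2.13% lower. With the length trend removed 4 rose and 17 fell. Leaving out single libraries, these numbers were 30 and 31 without Mel321-31 replicate 1, 4 and 5 without Mel321-31 replicate 2, 8 and 7 without replicate 3, 5 and 8 without replicate 4, 5 and 6 without MGO.53 replicate 2, and 6 and 6 without MGO.53 replicate 4. Jmjd1c rose with a log2 fold change of 0.23 ± 0.049 (adjusted p = 0.00834), Med13 with 0.19 ± 0.051 (adjusted p = 0.0407) and Atrx with 0.15 ± 0.034 (adjusted p = 0.013). Med13 and Atrx lost the call with the length trend removed, and Jmjd1c kept it. With the GC trend removed in place of length, Med13, Atrx and Jmjd1c all lost the call, Jmjd1c at 0.17. Vps72 fell at -0.18 ± 0.043 (adjusted p = 0.0212) and Myc at -0.24 ± 0.043 (adjusted p = 0.00214). Of the 36 long transcripts 8 rose and 1 fell. That gene was Ahnak, encoding a giant scaffold protein, at 24.1 ± 0.455 CPM in Mel321-31 and 34.4 ± 5.77 in MGO.53 (-0.52 ± 0.10, adjusted p = 0.00433).

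With Mel321-35 edgeR called 0 of the 299 genes of the lists, while 48 had an unadjusted p under 0.05 (10.5% of all genes did), DESeq2 called 4 and limma-voom 0. Among those with the smallest p, Polr2a, the large subunit of RNA polymerase II, stood at 303 ± 3.51 CPM in Mel321-35 (n = 2) and 347 ± 9.51 in MGO.53 (n = 4), a log2 fold change of -0.20 ± 0.046 (adjusted p = 0.121). Trrap, the scaffold that EP400 and TIP60 share, stood at 128 ± 12.5 CPM in Mel321-35 and 146 ± 9.70 in MGO.53 (-0.19 ± 0.070, adjusted p = 0.309). Ezh2, the polycomb methyltransferase, stood at 255 ± 1.00 CPM in Mel321-35 and 233 ± 5.15 in MGO.53 (0.13 ± 0.043, adjusted p = 0.281).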

How the data were processed

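Messenger RNA of 16 samples was labelled, and 15 libraries were analysed. Libraries were strand-specific and made from poly(A)-enriched RNA, per the labels' protocols. The tools named are STAR 2.7.10a, HTSeq 2.01 and DESeq2, per the submitters' processing notes. Their roles and the genome build were not given in the sources used here. As deposited by the authors, the table gave raw read counts, which were tested, and a normalised signal, equal to the count divided by a size factor per library, whose factors gave another scaling. Per-sample columns that matched no sample numbered 0.

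The 10 genes and all gene lists were chosen with earlier results of these data known. Counts were tested with edgeR 4.0.16 (R 4.3.3), in 1 fit of 4 groups over 14 batch 1 libraries, using TMM factors, filterByExpr by group and quasi-likelihood F-tests, with Benjamini-Hochberg adjustment over 14633 genes and a threshold of 0.05. The biological coefficient of variation was 5.46%. The SE is the absolute log2 fold change divided by the square root of F. Printed CPM used TMM factors over 15 libraries. Lengths and GC content are those of the longest transcript per Ensembl identifier in GENCODE M21 (GRCm38). The fits were tested on simulated data.

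Named were all 10 genes, from each list up to 3 called genes with the smallest p in each direction or, where none was called, 2 genes, and the 5 genes most like the 10 in level, though not each is printed. Alternatives were DESeq2 1.42.0, limma-voom 3.58.1, other scalings and filters, 2 groups alone, both batches, the replicate number as a block, length or GC trends removed, a threshold of 0.01, and each library left out.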

Additional observations from a re-analysis of the deposited data

Results flagged for a closer look

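In 33 tests for a library far from the others of its group of 4, by Dixon's criterion at 95%, 2 values stood out. Chance flags about 1 in 20 such groups. Kmt2b in Mel322-34 replicate 1 stood at 64.4 CPM, while the lowest library of that group was at 57.5 CPM. Ep300 in Mel322-34 replicate 4 stood at 103.9 CPM, while the highest library of that group was at 115 CPM.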

How the results depend on the processing

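No median over the 10 genes moved beyond the replicate spread under another scaling, filter, test or set of groups or batches, and the same held for the tilt on length with genes above an average log2 CPM of 5 or with the total count alone. Removing the length trend moved the median to -0.050 for Mel321-31 and -0.013 for Mel322-34 over MGO.53, to 0.054 for Mel322-34 over Mel321-35 and to -0.039 for Mel321-35 over Mel321-31, with 0 of the 10 genes called in each. In all genes it lowered the number called from 1005 to 418 for Mel322-34 and raised it from 6 to 25 for Mel321-35 over MGO.53. The number was 439 for Mel321-31 over MGO.53, 24 for Mel322-34 over Mel321-35 and 16 for Mel321-35 over Mel321-31. Removing the GC trend left 1 of the 10 called for Mel322-34, with 562 genes in all, and 263 genes for Mel321-31. With no filter on low counts 1, 5 and 2 of the 10 were called for Mel321-31 and Mel322-34 over MGO.53 and for Mel321-35 over Mel321-31. In the same order 763, 1202 and 144 genes in all were called, in place of 517, 1005 and 15. For Mel321-35 over MGO.53 there were 95 genes. DESeq2 called 1 of the 10 for Mel321-31 over MGO.53, with 714 genes in all, and 5 for Mel322-34 over Mel321-35, with 146. It called 90 genes for Mel321-35 over MGO.53. At an adjusted p under 0.01 0 of the 10 were called for Mel322-34 over MGO.53 or Mel321-35. In all genes 148, 247 and 0 were called for Mel321-31, Mel322-34 and Mel321-35 over MGO.53, and 8 for Mel322-34 over Mel321-35. Both batches without a batch term gave 5 of the 10 for Mel322-34 over Mel321-35, with 146 genes in all, and 91 genes for Mel321-31 over MGO.53. Fitting 2 groups alone gave 42 genes for Mel321-35 over MGO.53. The cause was not tested.

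Whether replicate numbers pair the libraries was not settled. Correlated deviations over 0.1 were found in 4 of 18 pairs of the same number and 8 of 54 of different numbers. The median correlations were 0.025 and -0.0019. Deviations were taken from means of small groups, so the pairs are not independent and cannot decide it. With the replicate number as a block 1 of the 10 was called for Mel321-31 over MGO.53 and 0 for Mel322-34 over Mel321-35. In all genes 636 and 16 were called, in place of 517 and 38.

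With each library left out in turn, the number called ran from 0 to 2 for Mel321-31, 0 to 4 for Mel322-34 and 0 to 0 for Mel321-35 over MGO.53, 0 to 0 for Mel322-34 over Mel321-31, 0 to 4 for Mel322-34 over Mel321-35 and 0 to 1 for Mel321-35 over Mel321-31. The medians ran from 0.011 to 0.067, 0.11 to 0.19, -0.11 to -0.0087, 0.058 to 0.11, 0.13 to 0.30 and -0.19 to -0.056 in the same order, and genes called over MGO.53 from 136 to 1238, 327 to 1451 and 0 to 26. A lone Mel321-35 library was assumed to vary like the other groups. Of single-gene values under these settings, 19 values of the 10 genes moved beyond the spread, 165 of called list genes lost the call, and 0 called values changed sign. The settings for list genes were added after the data were seen.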
